A study of Mus musculus with 9 samples.

Results

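The genes of nitric oxide production, arginine recycling and polyamine turnover were examined in mouse duodenal organoids that overexpressed HIF2 or HIF1. The genes were chosen by symbol, and the 8 described (Nos2, Nos3, Ass1, Asl, Odc1, Sat1, Gch1 and Ddah1) were all present among the 46517 genes of each table. Bulk RNA sequencing covered 9 cultures grown from duodenal crypts of wild-type C57BL/6J mice, 3 each labelled Adeno-GFP, Adeno-hHIF2 and Adeno-HhHIF1 and called Ad-GFP, Ad-hHIF2 and Ad-hHIF1 here. Every culture, the controls included, received adenovirus at 50 particles per cell, grew at 5% oxygen in medium with Wnt3a, R-spondin 3 and noggin, and was harvested about 72 hours after transduction. The HIF viruses carry human alleles with proline-to-alanine changes that stop VHL-driven degradation, while Ad-GFP drives a fluorescent protein from the CMV promoter. Organoids were broken into single intestinal stem cells before transduction, and the files do not show what share of cells took up virus. The labels give neither the age of the mice nor which animal each culture came from, so p-values measure only the spread between these cultures, which the article calls biological replicates for Ad-GFP and Ad-hHIF2. In such bulk RNA, fewer cells of a type and less RNA per cell cannot be told apart.

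Arginine is the shared substrate of competing routes. Nitric oxide synthases turn it into nitric oxide and citrulline with tetrahydrobiopterin as cofactor, and argininosuccinate synthase and lyase rebuild arginine from citrulline. Another route from arginine gives ornithine, which ornithine decarboxylase commits to the polyamines putrescine, spermidine and spermine, compounds that proliferating crypt epithelium makes in quantity, while spermidine/spermine acetyltransferase starts their breakdown and export.

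The expected counts summed to between 21722618 and 51119041 per library, so that a floor of 3 counts stood between 0.0589 and 0.150 CPM (counts per 1000000, with library sizes adjusted by TMM factors over all 9 libraries). The TMM factor was 1.31 in Ad-hHIF2 replicate 1 and 0.907 to 1.03 in the other 8 libraries, so that scaling by total counts alone changes that library most. The transgenes are human, and their reads enter the tables where they were counted for the mouse genes. Epas1, which encodes HIF2α, was at 604.3 to 757.5 CPM in the Ad-hHIF2 libraries and 1.47 to 3.07 CPM in the other 6. Hif1a was at 299.3 to 319.2 CPM in the Ad-hHIF1 libraries and 197.6 to 251.2 CPM elsewhere, a log2 fold change over Ad-GFP of 0.49 (edgeR adjusted p = 0.486). The 9 epithelial markers summed to 3255 to 3776 CPM, led by keratins, but Cdx1 was at 0 counts in every library, Epcam was at 1.42 to 3.80 CPM and the stem cell markers Lgr5 and Olfm4 did not exceed 1.18 and 0.128 CPM. In Ad-hHIF1 replicate 3 the repeat-like genes Gm10800 and Gm26870 held 15.96% of all counts.

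Between Ad-hHIF2 and Ad-GFP organoids, all 8 genes had enough counts to be tested and 6 passed an adjusted p of 0.05 (edgeR quasi-likelihood test, Benjamini-Hochberg adjustment over 14987 genes). Nos2, Sat1 and Gch1 were higher, where 15.9% of all genes tested passed as higher, and Odc1, Ddah1 and Ass1 were lower, where 13.6% passed as lower. Of these, Nos2 and Ddah1 also changed at least 2-fold, against backgrounds of 2.9% higher and 3.83% lower. The median log2 fold change of the 8 genes was -0.27, beside -0.01 for all genes. Scaled by total counts alone 5 of the genes passed, without Ass1. Ddah1 was then at a log2 fold change of -0.90, less than 2-fold, and reached -0.99 with a library left out. The shares of 15.9% and 13.6% hold for TMM only. With total counts the median of all genes was 0.244, and the share of all genes passing is not given here. Counts with that scaling, here and below, thus have no background beside them. With each library left out in turn, 4 to 6 of the genes passed. Without Ad-GFP replicate 3, Ad-hHIF2 replicate 1 or Ad-hHIF2 replicate 4 the count was 4, since Gch1 and Ass1 no longer passed.

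**Figure D1:**
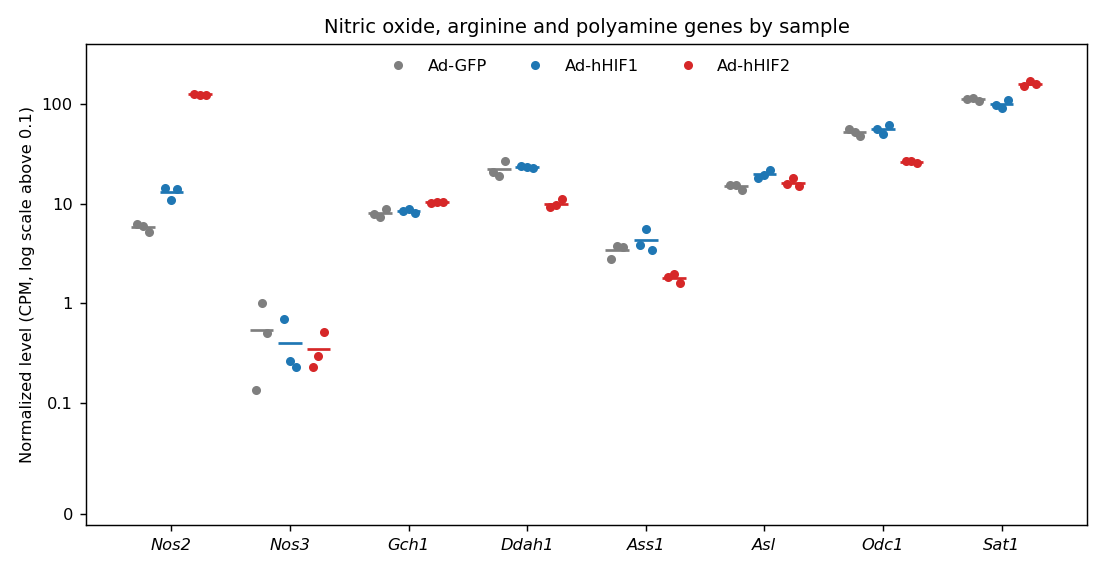
Level of each of the 8 genes in every library, in CPM on a log axis above 0.1 and a linear axis below it; points are libraries, 3 for each virus, and short lines are group means. Nos2 stood at 124.0 to 127.4 CPM in the Ad-hHIF2 libraries and at 5.15 to 6.23 CPM in the Ad-GFP libraries, while Nos3 stayed below 1 CPM in every library.

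Nos2, the inducible nitric oxide synthase (ENSMUSG00000020826, plus strand of chromosome 11 from 78920787 to 78960254 in the GENCODE M21 annotation of GRCm38), showed the largest change of the 8. It was at 6.23, 5.99 and 5.15 CPM in Ad-GFP replicates 1, 3 and 4, at 14.28, 10.90 and 13.94 CPM in the Ad-hHIF1 replicates and at 127.4, 124.0 and 124.2 CPM in the Ad-hHIF2 replicates. The groups were fully ordered, with every Ad-hHIF2 library above every Ad-hHIF1 library and every Ad-hHIF1 library above every Ad-GFP library. These levels rested on 103 to 228 counts per Ad-GFP library, 249 to 545 per Ad-hHIF1 library and 3839 to 6319 per Ad-hHIF2 library and were whole numbers in all 9 libraries.

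The rise over Ad-GFP in HIF2-overexpressing organoids was 21.55-fold, a log2 fold change of 4.43 (SE 0.0917, edgeR adjusted p = 8.06e-08). By p-value Nos2 ranked 1st of 14987 genes, and by size of the log2 fold change it ranked 14th. Its level per kilobase of transcript (CPM divided by the effective length in kb) went from 1.43 to 30.87, that is from percentile 32.1 to percentile 90 of the 15660 genes tested in any comparison. The log2 fold change lay between 4.37 and 4.49 with each library left out in turn.

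In HIF1-overexpressing organoids the mean of Nos2 was 13.04 CPM, 2.25-fold that of Ad-GFP, a log2 fold change of 1.17 (SE 0.150, 95% interval 0.82 to 1.51). Its unadjusted p was 5.27e-05 and its adjusted p was 0.161 (edgeR), above the threshold. The article, which used EBSeq, lists Nos2 among the few genes upregulated by both HIF1 and HIF2. It also reports higher Nos2 by qRT-PCR in HIF2-overexpressing organoids. In that comparison 0 of the 8 genes tested passed in edgeR or limma-voom, and 0 in DESeq2, which gave 5 of them no adjusted p. In edgeR 2 of them, Nos2 and Asl, had an unadjusted p below 0.05. Of all 15233 genes 0% passed, with 1308 below an unadjusted p of 0.05. The call for Nos2 depended on the fit. It passed with all 9 libraries in a single fit (adjusted p = 0.0123) and without a count filter (2.19e-09), and over the other alternatives its adjusted p ran up to 0.75, the value without Ad-hHIF1 replicate 1. DESeq2 gave it an unadjusted p of 5.22e-10 but no adjusted value. Set directly against Ad-hHIF1, Ad-hHIF2 organoids held 9.57-fold more Nos2 RNA (log2 fold change 3.26, SE 0.111, edgeR adjusted p = 5.38e-08, fit of all 9 libraries). The transgene signal was unequal, at a log2 fold change over Ad-GFP of 8.60 for Epas1 with Ad-hHIF2 and 0.49 for Hif1a with Ad-hHIF1. Whether such differences follow the amount of transgene or which HIF it encodes was not tested.

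Nos3, the endothelial nitric oxide synthase, was near the limit of detection. It was at 0.137, 0.998 and 0.4999 CPM in the Ad-GFP libraries, 0.704, 0.263 and 0.230 CPM with Ad-hHIF1 and 0.230, 0.294 and 0.521 CPM with Ad-hHIF2, and the 3 groups overlapped. No comparison passed (edgeR adjusted p between 0.507 and 0.882), and the 95% interval for Ad-hHIF2 against Ad-GFP, from -2.26 to 0.92 on the log2 scale, includes falls of more than 2-fold. Nos3 shares 294 exon bases with Atg9b and 1040 with Gm15587 on the opposite strand, and the strandedness of the libraries is not stated in the sources used here. Nos1, the neuronal enzyme, averaged 0.923 CPM with Ad-GFP, 2.16 with Ad-hHIF1 and 0.498 with Ad-hHIF2, and did not pass in edgeR in any comparison (adjusted p 0.114 to 0.639). With DESeq2 or without a count filter it passed against Ad-hHIF1, with the lower level in Ad-hHIF2 organoids.

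Nos2 is also made by macrophages, so leukocyte markers were read beside it. The 12 macrophage and leukocyte markers summed to 69.4 to 71.7 CPM with Ad-GFP, 74.4 to 84.0 CPM with Ad-hHIF1 and 69.4 to 72.5 CPM with Ad-hHIF2, mostly from Mrc1. In the Ad-hHIF2 libraries Ptprc, which encodes the pan-leukocyte protein CD45, was at 0 to 0.0686 CPM, Adgre1 at 0 to 0.0457 CPM and Itgam at 0.137 to 0.194 CPM. Cd68, a lysosomal protein of macrophages, was at 8.58 to 13.9 CPM with Ad-GFP and 11.1 to 14.8 CPM with Ad-hHIF2 and did not pass (0.38, edgeR adjusted p = 0.179), but passed as higher with total counts (0.64, adjusted p = 0.00813). Of 9 tested markers 1 was higher and 2 lower than with Ad-GFP, where 15.9% and 13.6% of all genes tested passed, and their median log2 fold change was -1.15. With total counts 2 were higher and 2 lower. Cd14, a co-receptor for bacterial lipopolysaccharide, fell from 6.48 to 9.95 CPM with Ad-GFP to 2.85 to 3.98 CPM (log2 fold change -1.19, SE 0.206, edgeR adjusted p = 0.00319), and passed in all 6 fits that left out a library. Ptprc, at 0.492 to 1.15 CPM with Ad-GFP, fell (edgeR adjusted p = 0.00472). Csf1r, the receptor of a macrophage growth factor, rose from 0.301 to 1.92 CPM to 2.79 to 4.26 CPM (log2 fold change 1.46, adjusted p = 0.0475), and passed in 2 of the 6 fits that left out a library. The part of such cells in the level of Nos2 was not tested. Endothelial markers summed to 3.78 to 7.57 CPM and fibroblast markers to 9.87 to 19.5 CPM over all 9 libraries.

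**Figure D2:**
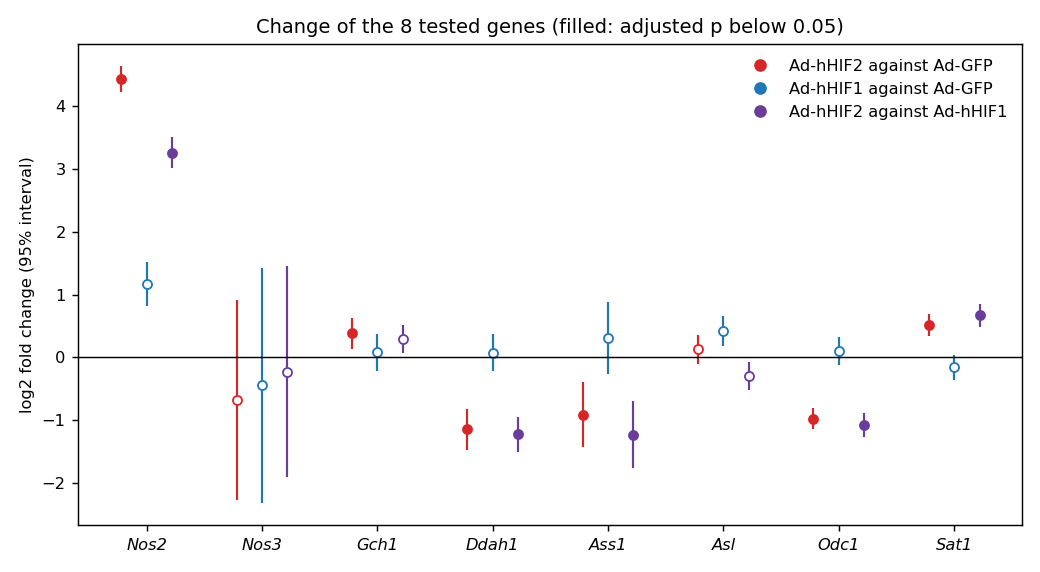
Log2 fold change of the 8 tested genes in 3 comparisons, with 95% intervals from edgeR's quasi-likelihood test; filled points passed an adjusted p of 0.05 and open points did not. Nos2 lay at 4.43 and Odc1 at -0.97 for Ad-hHIF2 against Ad-GFP, and all 8 points for Ad-hHIF1 against Ad-GFP are open.

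Gch1 encodes GTP cyclohydrolase 1, the entry step of tetrahydrobiopterin synthesis. It was at 7.95, 7.29 and 8.80 CPM with Ad-GFP, 8.41, 8.80 and 8.16 CPM with Ad-hHIF1 and 10.17, 10.50 and 10.41 CPM with Ad-hHIF2. All 3 Ad-hHIF2 libraries were above the other 6. The rise over Ad-GFP was 1.30-fold (log2 fold change 0.38, SE 0.108, edgeR adjusted p = 0.0288) and passed in only 1 of the 6 fits that left out a library, with adjusted p up to 0.101. Against Ad-hHIF1 it missed the threshold (0.29, adjusted p = 0.0578). Of the 7 genes of tetrahydrobiopterin synthesis and recycling, Gch1 alone passed in edgeR with TMM, a share near the 15.9% of all genes tested that passed as higher.

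Ddah1 encodes dimethylarginine dimethylaminohydrolase 1, which breaks down the methylarginines that inhibit nitric oxide synthases. Its level was 20.88, 18.98 and 26.79 CPM in the Ad-GFP libraries, 23.65, 23.47 and 22.76 CPM in the Ad-hHIF1 libraries and 9.21, 9.61 and 11.16 CPM in the Ad-hHIF2 libraries. The Ad-hHIF2 libraries lay below all others, and the other groups overlapped. Ddah1 fell 2.21-fold against Ad-GFP (log2 fold change -1.15, SE 0.143, edgeR adjusted p = 0.00062) and 2.33-fold against Ad-hHIF1 (-1.22, adjusted p = 8.1e-05). Both calls were lost on the TPM scales. Against Ad-GFP it was at -0.27 on log2(TPM + 1) and -0.57 on log2(TPM + 0.1) (limma adjusted p = 0.331 on the latter). Against Ad-hHIF1 these values were -0.37 and -0.77. Ddah2, the more abundant gene of the same family, was at 42.7, 42.3 and 35.8 CPM with Ad-GFP and 45.1, 54.3 and 47.0 CPM with Ad-hHIF2, which did not overlap. It did not pass in edgeR (0.28, SE 0.0988, adjusted p = 0.062), but passed as higher with DESeq2, without a count filter, with total counts and with the replicate block. Prmt1, the main enzyme that places methyl groups on protein arginines, fell as well, by 0.60 on the log2 scale (SE 0.136, adjusted p = 0.0109), but did not pass with total counts (-0.36). Prkg2, a cGMP-dependent protein kinase, fell from 58.2 to 76.1 CPM with Ad-GFP to 37.5 to 40.5 CPM with Ad-hHIF2 (log2 fold change -0.82, SE 0.101, edgeR adjusted p = 0.00055). Of the 7 genes for soluble guanylate cyclase and cGMP signalling, 5 had too few counts to be tested, every listed cyclase subunit among them. The highest group mean of a subunit was 0.40 CPM (Gucy1a3 with Ad-hHIF1). The fall of Prkg2 is therefore not read as a change in the nitric oxide route.

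The enzymes that rebuild arginine from citrulline moved less than Nos2. Ass1, argininosuccinate synthase, was at 2.79, 3.80 and 3.70 CPM with Ad-GFP, 3.81, 5.56 and 3.45 CPM with Ad-hHIF1 and 1.85, 1.98 and 1.59 CPM with Ad-hHIF2. The Ad-hHIF2 libraries were the lowest 3 of the 9. Ass1 fell 1.88-fold against Ad-GFP (log2 fold change -0.91, SE 0.225, edgeR adjusted p = 0.0165) and 2.35-fold against Ad-hHIF1 (-1.23, SE 0.240, adjusted p = 0.0041). Against Ad-GFP the call was lost when Ad-GFP replicate 3, Ad-hHIF2 replicate 1 or Ad-hHIF2 replicate 4 was left out (adjusted p 0.0512 to 0.0644), with total counts (-0.66, adjusted p = 0.106), and on the TPM scales (-0.034 on log2(TPM + 1), and -0.12 with adjusted p = 0.833 on log2(TPM + 0.1)). Against Ad-hHIF1 it was lost on log2(TPM + 0.1) too (-0.50, adjusted p = 0.303). Its effective length was 1043 and 1145 bases in Ad-hHIF2 replicates 4 and 3 and 1452 to 1561 bases in the other 7, so that the estimated mix of transcripts differed there.

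Asl, argininosuccinate lyase, was at 15.44, 15.41 and 13.85 CPM with Ad-GFP, 18.27, 19.53 and 22.02 CPM with Ad-hHIF1 and 15.62, 18.11 and 14.94 CPM with Ad-hHIF2. Here the Ad-hHIF1 libraries were the highest 3, while the Ad-GFP and Ad-hHIF2 libraries overlapped. Relative to Ad-GFP the log2 difference was 0.42 with Ad-hHIF1 (SE 0.103, unadjusted p = 0.00357, edgeR adjusted p = 0.490) and 0.13 with Ad-hHIF2 (adjusted p = 0.381, 95% interval -0.10 to 0.36). Ad-hHIF2 against Ad-hHIF1 gave -0.30 (adjusted p = 0.0574), and that value passed in 3 of 20 alternatives.

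Around this cycle, the genes that make citrulline from ammonia and ornithine were nearly silent. Cps1 had 5 counts in Ad-GFP replicate 4 and 0 in the other 8 libraries, and Otc had 2 counts in Ad-GFP replicate 1 and 0 elsewhere. Slc25a13 encodes citrin, the mitochondrial carrier that exports the aspartate used by argininosuccinate synthase. It rose from 8.70 to 11.06 CPM with Ad-GFP to 29.4 to 32.5 CPM with Ad-hHIF2, 3.15-fold (log2 fold change 1.66, SE 0.0985, edgeR adjusted p = 1.05e-05), and was at 11.1 to 13.8 CPM with Ad-hHIF1. It was the only 1 of 11 tested genes in the list for arginine and ornithine transport to pass in edgeR with TMM. As an aspartate carrier, it is not read as a change in arginine transport. In that list 2 genes passed with DESeq2, limma-voom or total counts, and 2 on each TPM scale. Among all genes tested, 15.9% passed as higher and 13.6% as lower in edgeR with TMM, so the count itself is no more than that background. Slc7a1, the main cationic amino acid importer in this list by level, was at 112.9 to 139.5 CPM with Ad-GFP and 139.6 to 154.1 CPM with Ad-hHIF2 and did not pass. On the ornithine and proline side, Oat rose by 0.36 on the log2 scale (adjusted p = 0.0148), while Prodh was at -0.73 (0.0207) and Pycrl at -0.49 (0.0434), both lower. With total counts Oat still passed and Prodh and Pycrl did not. Of the 6 fits that left out a library, Oat passed in 4, Prodh in 3 and Pycrl in 2.

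Gatm, which passes arginine into creatine synthesis, fell from 22.6 to 26.3 CPM to 15.9 to 17.1 CPM (log2 fold change -0.52, SE 0.0854, edgeR adjusted p = 0.00245), though with total counts it did not pass (-0.27).

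Polyamine synthesis and breakdown genes were counted separately in HIF2-overexpressing organoids, where 15.9% of all genes tested passed as higher and 13.6% as lower. Of 7 tested synthesis genes 4 were lower and 0 higher, with a median log2 fold change of -0.53. Of 4 breakdown genes 3 were higher and 0 lower, with a median of 0.40. The genes that passed were Odc1, Srm, Mtap and Mat2a in the synthesis list and Sat1, Smox and Paox in the breakdown list. Mtap and Mat2a act beside the synthesis steps, in methylthioadenosine salvage and S-adenosylmethionine supply. The synthesis enzymes Sms and Amd1 did not pass. Their means were higher with Ad-hHIF2 than with Ad-GFP (54.87 against 46.46 CPM and 38.91 against 35.25 CPM). Scaling by total counts alone moved the median of all genes to 0.24. Odc1 and Srm still passed as lower there and the same 3 breakdown genes as higher. Mtap and Mat2a did not pass (-0.36 and -0.26), and 2 other synthesis genes, Sms (0.50) among them, passed as higher. On log2(TPM + 1), 0 synthesis and 0 breakdown genes passed. On log2(TPM + 0.1), only Srm passed as lower and only Sat1 as higher. The synthesis median was -0.042 and -0.076 on these 2 scales, or -0.17 and -0.38 relative to all genes. The breakdown median was 0.64 and 0.77, or 0.51 and 0.46 relative to all genes.

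Odc1, ornithine decarboxylase, the rate-limiting enzyme of polyamine synthesis (ENSMUSG00000011179, plus strand of chromosome 12 from 17544794 to 17551505), was at 56.11, 52.08 and 47.75 CPM with Ad-GFP and 55.63, 50.40 and 61.03 CPM with Ad-hHIF1. In the Ad-hHIF2 libraries it was at 26.81, 26.54 and 25.88 CPM. These 3 values were far below the other 6, which overlapped each other. Odc1 fell 1.96-fold against Ad-GFP (log2 fold change -0.97, SE 0.0758, edgeR adjusted p = 4.55e-05) and 2.11-fold against Ad-hHIF1 (-1.08, SE 0.0864, adjusted p = 1.32e-05). Against Ad-GFP it passed in all 6 fits that left out a library. On the TPM scales it did not pass against either group. Against Ad-GFP it was at -0.345 on log2(TPM + 1) and -0.495 on log2(TPM + 0.1) (limma adjusted p = 0.386 on the latter). Its expected counts were not whole numbers in any of the 9 libraries, so part of its reads was shared with another sequence.

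Sat1, spermidine/spermine acetyltransferase 1 (ENSMUSG00000025283, minus strand of chromosome X from 155213132 to 155216449), moved the other way. It was at 112.4, 116.0 and 107.1 CPM with Ad-GFP, 98.77, 91.74 and 109.9 CPM with Ad-hHIF1 and 150.5, 169.6 and 157.3 CPM with Ad-hHIF2. Every Ad-hHIF2 library was above every other library, and the Ad-GFP and Ad-hHIF1 libraries overlapped. Sat1 rose 1.43-fold over Ad-GFP (log2 fold change 0.51, SE 0.0788, edgeR adjusted p = 0.00181) and 1.59-fold over Ad-hHIF1 (0.67, SE 0.0847, adjusted p = 0.00031). On the per-kilobase scale it was the most abundant of the 8 genes in every group, at a mean of 128.4 with Ad-GFP, 121.4 with Ad-hHIF1 and 183.7 with Ad-hHIF2.

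The ratio of Sat1 to Odc1 on that scale was 5.71, 6.32 and 5.83 in the Ad-GFP libraries, 5.24, 5.14 and 5.29 in the Ad-hHIF1 libraries and 15.82, 17.40 and 17.07 in the Ad-hHIF2 libraries. The Ad-hHIF2 values did not overlap the others. For any such ratio, an exact two-sided permutation test of 3 against 3 libraries cannot give a p below 0.10, so none is quoted. The ratio of Nos2 to Gch1 was 0.381 to 0.534 with Ad-GFP, 0.803 to 1.11 with Ad-hHIF1 and 7.68 to 8.14 with Ad-hHIF2, and that of Nos2 to Ass1 was 0.535 to 0.801, 0.716 to 1.55 and 17.7 to 26.4.

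**Figure D3:**
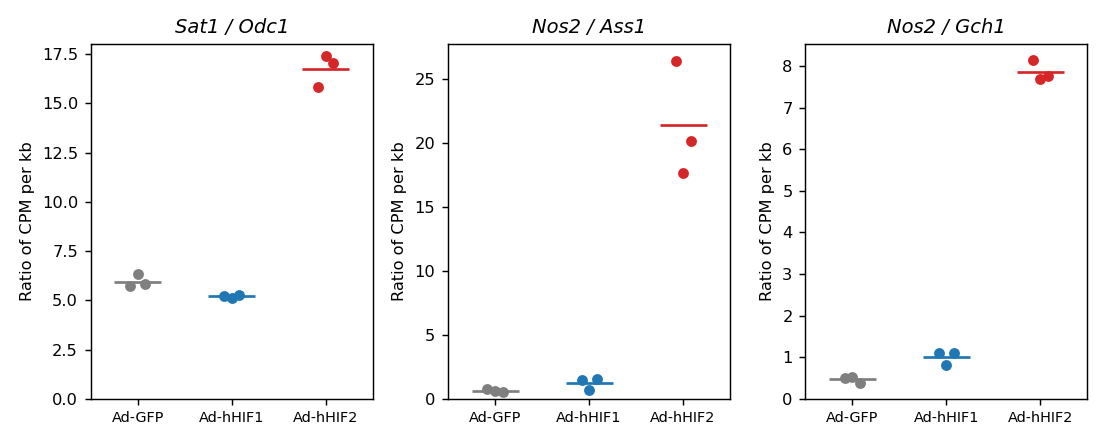
Ratios of the per-kilobase levels (CPM per kb of effective length, linear axis from 0) of Sat1 to Odc1, Nos2 to Ass1 and Nos2 to Gch1 in each of the 9 libraries; points are libraries and lines are group means. Sat1 to Odc1 lay between 15.82 and 17.40 with Ad-hHIF2 and between 5.14 and 6.32 in the other 6 libraries.

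Srm, spermidine synthase, was at 15.22, 13.75 and 15.90 CPM with Ad-GFP, 14.11, 14.28 and 14.58 CPM with Ad-hHIF1 and 6.68, 4.98 and 5.24 CPM with Ad-hHIF2. It fell more than Odc1, 2.64-fold against Ad-GFP (log2 fold change -1.40, SE 0.132, edgeR adjusted p = 0.00014). Mtap, which salvages the methylthioadenosine left over by polyamine synthesis, was at -0.62 (SE 0.0931, adjusted p = 0.00163). Mat2a, which makes S-adenosylmethionine, was at -0.53 (SE 0.0841, adjusted p = 0.00213). Sms, spermine synthase, did not pass against Ad-GFP (0.25) but was higher than in Ad-hHIF1 organoids (0.54, SE 0.0884, adjusted p = 0.00155).

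Among breakdown enzymes, Smox, spermine oxidase, was at 68.2 to 69.6 CPM with Ad-GFP, 76.1 to 78.7 CPM with Ad-hHIF1 and 97.7 to 102.1 CPM with Ad-hHIF2. The 3 groups did not overlap, and the rise with Ad-hHIF2 over Ad-GFP was 1.45-fold (log2 fold change 0.53, SE 0.0662, adjusted p = 0.000595). Paox, which oxidizes acetylated polyamines, rose by 0.28 (SE 0.0861, adjusted p = 0.0393) and passed in 2 of the 6 fits that left out a library. Of the 5 antizymes and antizyme inhibitors, which control the stability of ornithine decarboxylase protein, 0 passed against Ad-GFP in edgeR with TMM, DESeq2 or limma-voom, 1 had an unadjusted p below 0.05, and 2 passed as higher with total counts. Of the 4 genes of hypusine formation, the modification of eIF5A that consumes spermidine, 0 passed against Ad-GFP with any of these tools and 1 had an unadjusted p below 0.05. Among all genes tested against Ad-GFP, 15.9% passed as higher and 13.6% as lower in edgeR with TMM. Counts of 0 in lists this short are therefore not read as a result. Against Ad-hHIF1, Dohh passed as lower (-0.27, edgeR adjusted p = 0.046) and did not pass with DESeq2 or total counts.

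**Figure D4:**
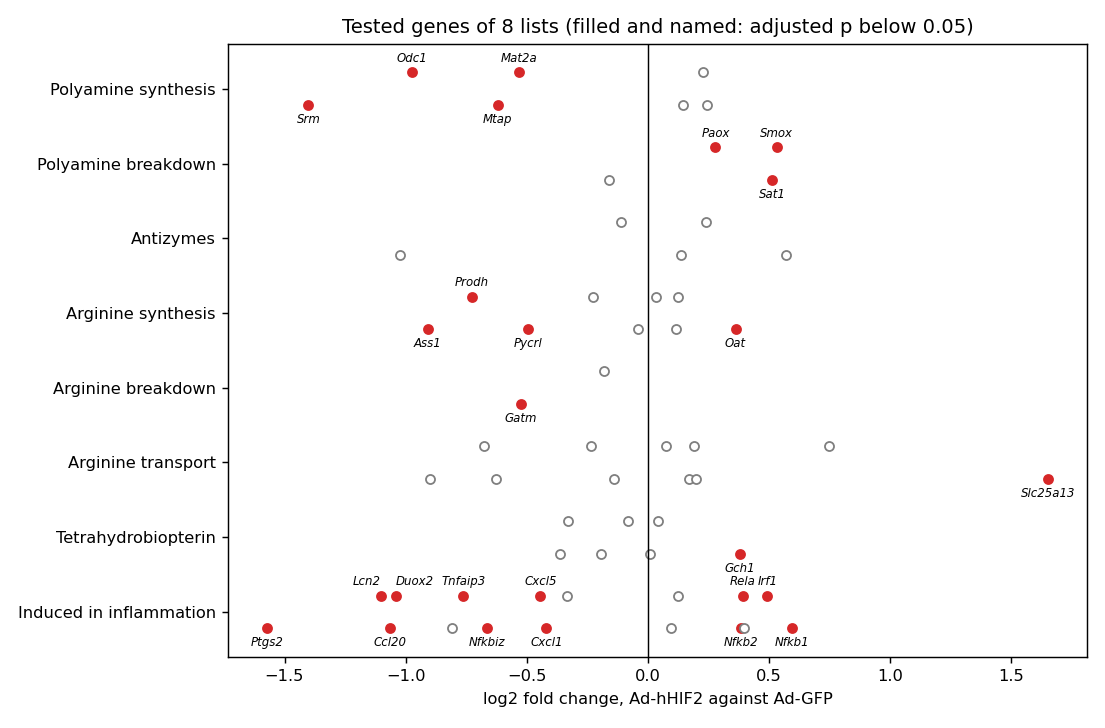
Log2 fold change between Ad-hHIF2 and Ad-GFP organoids of every tested gene in 8 lists, one list per line; filled and named points passed an adjusted p of 0.05 in edgeR and open points did not. Vertical offsets within a line only separate labels. Slc25a13, shown in the arginine transport line, encodes an aspartate carrier. Synthesis genes that passed lie left of 0, from -1.40 for Srm to -0.53 for Mat2a, and breakdown genes that passed lie right of it, from 0.28 for Paox to 0.53 for Smox.

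Promoter sequences from RefSeq (GRCm38.p6) were found for 5 of the 8 genes (Odc1, Sat1, Gch1, Ddah1 and Ass1) and were read over the 250 bases before the RefSeq start site. The entries for Nos2, Nos3 and Asl were missing. Odc1 and Sat1 are shown because they moved in opposite directions, and Ass1 because its window holds the longer palindrome CACGTG. Capitals mark ACGTG or GCGTG, the core letters of hypoxia response elements, on either strand, where the opposite strand reads CACGT or CACGC. The windows are chr12:17544623-17544872 on the plus strand for Odc1, chrX:155216450-155216699 on the minus strand for Sat1 and chr2:31470020-31470269 on the plus strand for Ass1, each written 5′ to 3′.
Odc1: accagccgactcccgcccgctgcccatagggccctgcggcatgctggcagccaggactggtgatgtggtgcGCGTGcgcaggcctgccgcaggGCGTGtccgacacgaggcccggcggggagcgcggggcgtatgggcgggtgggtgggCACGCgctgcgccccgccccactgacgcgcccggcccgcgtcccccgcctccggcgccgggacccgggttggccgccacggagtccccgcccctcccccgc
Sat1: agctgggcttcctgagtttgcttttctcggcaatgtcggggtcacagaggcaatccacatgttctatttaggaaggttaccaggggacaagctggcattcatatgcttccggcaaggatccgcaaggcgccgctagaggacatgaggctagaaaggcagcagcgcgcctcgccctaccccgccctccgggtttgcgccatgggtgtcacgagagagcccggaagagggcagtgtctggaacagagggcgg
Ass1: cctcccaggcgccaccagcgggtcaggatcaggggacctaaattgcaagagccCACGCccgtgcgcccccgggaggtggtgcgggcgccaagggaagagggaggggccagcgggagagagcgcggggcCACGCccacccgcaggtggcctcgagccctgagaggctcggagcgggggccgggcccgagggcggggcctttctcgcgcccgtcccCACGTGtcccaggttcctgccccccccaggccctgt

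The Odc1 window holds GCGTG 3 times, first at 179 bases before the start, and the Ddah1 window holds it 1 time. The Ass1 window holds GCGTG 2 times and a single CACGTG that begins 36 bases before the start and gives ACGTG on both strands, which therefore overlap. The windows of Sat1 and Gch1, the genes here that rose, hold neither ACGTG nor GCGTG. Over all 32851 windows of this length, 16.6% hold ACGTG, 28.2% hold GCGTG, 38.6% hold at least 1 of them and 6.02% hold CACGTG. A match is a description of letters and not evidence of binding.

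Of the 71 further genes in 12 lists of these pathways, 55 were tested between Ad-hHIF2 and Ad-GFP and 13 passed, 4 higher and 9 lower, where 15.9% of all genes tested passed as higher and 13.6% as lower. Scaled by total counts alone, the split was 12 higher and 2 lower, to which the shares above, from TMM, do not apply. The median of these genes relative to that of all genes was -0.10 with TMM and -0.11 with total counts. Slc25a13 was the only 1 at least 2-fold higher and Srm the only 1 at least 2-fold lower with TMM. In Ad-hHIF1 organoids 0 of 55 passed in edgeR, DESeq2 or limma-voom, and 6 had an unadjusted p below 0.05.

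Against Ad-hHIF1, 5 of the 8 tested members passed in Ad-hHIF2 organoids, Nos2 and Sat1 higher (where 13.7% of 15556 genes passed as higher) and Odc1, Ddah1 and Ass1 lower (where 12% passed as lower). This contrast shares its Ad-hHIF2 libraries with the comparison against Ad-GFP. It also sets groups with unequal transgene signal against each other, and the part of that inequality was not tested. Of 56 further pathway genes tested, 4 were higher and 9 lower, among them Srm (-1.34, edgeR adjusted p = 2.84e-05), Mat2a (-0.75, adjusted p = 0.000113), Mtap (-0.80, adjusted p = 0.00013), Prkg2 (-1.07, adjusted p = 4.15e-05) and Slc25a13 (1.39, adjusted p = 1.39e-05).

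Genes that inflamed epithelium often induces together with Nos2 were compared in the same fit. Of 17 tested, 12 passed between Ad-hHIF2 and Ad-GFP organoids, 4 higher and 8 lower, with a median log2 fold change of -0.42, where 15.9% of all genes tested passed as higher and 13.6% as lower. Scaled by total counts alone, 5 passed as higher and 4 as lower. On each TPM scale 0 passed as higher and 1 as lower. The median of the list there was -0.0007 on log2(TPM + 1) and -0.017 on log2(TPM + 0.1). With TMM the higher genes were transcription factors, Nfkb1 (0.60, edgeR adjusted p = 0.000376), Irf1 (0.49), Rela (0.39) and Nfkb2 (0.38). Rela passed in 1 of the 6 fits that left out a library.

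The lower ones included the NF-kB regulators Tnfaip3 (-0.76, edgeR adjusted p = 8.66e-05) and Nfkbiz (-0.66, adjusted p = 0.000428), each of which passed in all 6 fits that left out a library. Ptgs2, which encodes cyclooxygenase-2, was at 169.7 to 175.0 CPM with Ad-GFP and 55.1 to 61.4 CPM with Ad-hHIF2 (log2 fold change -1.57, SE 0.0726, adjusted p = 2.37e-06). Lcn2, an iron-sequestering antimicrobial protein, was at -1.10 (adjusted p = 0.000287), the chemokine Ccl20 at -1.06 (0.0023) and the hydrogen peroxide-producing oxidase Duox2 at -1.04 (0.0244, passing in 3 of the 6 fits that left out a library). With total counts Ptgs2, Lcn2, Ccl20 and Tnfaip3 still passed as lower and Duox2 and Nfkbiz did not.

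Of 9 classical hypoxia response genes, 4 passed as higher and 2 as lower with Ad-hHIF2, against 5 and 1 with total counts. Among all genes tested, 15.9% passed as higher and 13.6% as lower with TMM. Ankrd37 was at 11.5 to 19.3 CPM with Ad-GFP and 72.8 to 91.5 CPM with Ad-hHIF2 (log2 fold change 2.32, SE 0.174, edgeR adjusted p = 3.66e-05). Egln3 (1.45), which encodes a HIF prolyl hydroxylase, Adm (1.25) and Ndrg1 (1.10) also rose, so that the log2 fold change of Nos2 was above that of each of them. The glucose transporter gene Slc2a1 (-0.78, edgeR adjusted p = 0.000141) and the pyruvate dehydrogenase kinase gene Pdk1 (-0.65, adjusted p = 0.000235) fell. Pdk1 did not pass with total counts. On each TPM scale 4 of the list passed as higher and 0 as lower. On log2(TPM + 0.1) Slc2a1 was at -0.33 (limma adjusted p = 0.552) and Pdk1 at -0.27 (0.648).

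The pattern of Nos2 across the 9 libraries was most like that of Selenbp1 (Pearson r = 0.999 on log2 CPM), Kctd11 (0.997), Arhgap29 (0.996), Plat (0.995) and Ets1 (0.995), out of 12395 genes. The libraries share their group structure, so r mainly follows the order of the groups. Selenbp1, which encodes a selenium-binding protein, averaged 98.98 CPM with Ad-GFP, 164.3 CPM with Ad-hHIF1 and 578.2 CPM with Ad-hHIF2. Plat, tissue plasminogen activator, averaged 119.8, 154.6 and 324.6 CPM in the same order.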

How the data were processed

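RNA sequencing covered 9 cultures in 3 groups of 3, grouped by the virus named in the labels. Per the article's methods, the authors filtered reads by quality and estimated transcript abundance with RSEM. RSEM's version, the aligner, build, annotation and strandedness are not given in the sources used here. The deposited expected counts are RSEM estimates that are not normalized, and 85.7% of them are whole numbers. The deposited TPM are length-scaled abundances from the same estimates and served only in alternatives. The authors' EBSeq test was not run here.

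Rounded expected counts were filtered with filterByExpr and normalized by TMM. Tests used the quasi-likelihood F-test of edgeR 4.0.16 under R 4.3.3 (with limma 3.58.1), with Benjamini-Hochberg adjustment over all genes tested and a threshold of 0.05. Comparisons with Ad-GFP used the 6 libraries of that pair of groups, and the contrast of the HIFs used all 9. SE and 95% intervals come from the quasi-likelihood F statistic. Levels between genes were compared as CPM per kb of the deposited effective length. The genes and gene lists were chosen with earlier results of these data known. The genes named are the members, Epas1 and Hif1a, pathway genes that passed with a change of at least 2-fold or were among the 3 largest of their list, markers, and the 5 genes most like Nos2 by Pearson correlation of log2(CPM + 0.5) among genes with a mean of at least 1 CPM. Mat2a, Oat, Sms, Ddah2, Dohh, Slc7a1, Nfkb1, Irf1, Rela, Nfkb2, Nfkbiz, Tnfaip3, Slc2a1 and Pdk1 were named after their values were seen. Some members and a gene of the hypoxia list are not reported here. Positions are those of the reference, matched by Ensembl identifier.

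Alternatives were median-ratio size factors, total counts only, Gm10800 and Gm26870 left out, no count filter, a minimum of 10 counts per library, limma-voom, DESeq2 1.42.0, log2(TPM + 1) or log2(TPM + 0.1) tested with limma, other samples in the fit, the replicate number as a block, and each library left out in turn. On counts simulated for Ad-hHIF2 against Ad-GFP with 200 changed genes and trended dispersion, the test recovered 70% of 2-fold and 94.9% of 4-fold changes among 14695 genes, with 2.98% of calls false. With gene-specific dispersion it recovered 72.7% and 87.5% among 14659 genes, with 10.3% false. For Ad-hHIF1 against Ad-GFP it recovered 48.5% of 2-fold and 84.4% of 4-fold changes among 14757 genes with trended dispersion (2.29% false), and 43.5% and 79.6% among 14764 genes with gene-specific dispersion (5% false). Floors of 3 counts cover counting error only. Python 3.11.15 and matplotlib 3.10.9 were used.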

Additional observations from a re-analysis of the deposited data

How the results depend on the processing

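With 3 libraries a group and a level below 1 CPM, Nos3 could not be followed at this depth. For Ad-hHIF2 against Ad-GFP, Nos2 kept its direction and call in all 17 alternatives. Odc1 and Ddah1 missed the threshold only on the TPM scales and Sat1 only on log2(TPM + 1), where 1 of the 8 genes passed, against 2 on log2(TPM + 0.1). On log2(TPM + 1) the value of Sat1 was larger, at 0.93 against 0.51 with TMM. Odc1 and Ddah1 shrank there, to -0.345 from -0.97 and to -0.27 from -1.15. On the 2 TPM scales, 2 and 3 of the further pathway genes and 1010 and 1109 of all genes passed. For Ad-hHIF2 against Ad-hHIF1 the same scales gave 1 and 1 of the 8 genes, 1 and 1 of the pathway genes and 367 and 460 of all genes. The cause was not tested. Leaving out 1 library gave 2594 to 4335 genes for that contrast, the lowest without Ad-hHIF2 replicate 1. For Ad-hHIF1 against Ad-GFP, 1 gene, Nos2, passed without a count filter and 1 with all 9 libraries in a fit. Over all genes there were 384 calls without a filter, 144 with DESeq2, 5 with limma-voom and 7 with all 9 libraries. DESeq2 gave no adjusted p to 5 members there.

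Among the 8 genes, values that turned sign were not called in either setting. Of the called genes in the lists, Cxcl5 (-0.44 against Ad-GFP) was at 0.016 on log2(TPM + 1) and 0.010 on log2(TPM + 0.1), and against Ad-hHIF1 Dohh (-0.27) was at 0.027 and 0.028, and Mrc1 (-0.27) at 0.003 on log2(TPM + 1). For Ad-hHIF2 against Ad-GFP, Nos3 was at 9.34e-05 and 0.00734 on the 2 TPM scales and at -1.15 to 0.19 with a library left out. For Ad-hHIF1 against Ad-GFP, Nos3 was at 9.34e-05 and 0.00734 on the 2 TPM scales and Sat1 at 0.094 and 0.099. With a library left out there, Nos3 was at -1.14 to 0.37 and Ddah1 at -0.038 to 0.22. For Ad-hHIF2 against Ad-hHIF1, leaving out a library gave -0.59 to 0.46 for Nos3.

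The sources used here do not say whether equal replicate numbers mark a shared origin. Same-numbered Ad-hHIF2 and Ad-GFP libraries deviated together by r of only 0.0703 to 0.134. Each of those 6 libraries still correlated best with its own number, which did not hold in the other pairs of groups. With the replicate block, 6, 0 and 5 members passed in the 3 comparisons, with no call among them lost or gained, and 4631, 0 and 3638 of all genes.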
